A study of Mus musculus with 40 samples.

Results

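The measurement described here is how far the transcriptional response to doxorubicin differed between p21-null and p53-null mammary tumours of MMTV-Wnt1 mice. It is called the response difference below, and it is the change with doxorubicin in p21-null tumours minus the change with doxorubicin in p53-null tumours, on a log2 scale. A positive value means that the response was higher in p21-null tumours. Tumours were chosen by the genotype and treatment in their titles, which took 28 of the 40 tumours of the series and 23 of its 34 mice. Every one of these mice carried the MMTV-Wnt1 transgene, in which the promoter of a mouse mammary tumour virus expresses the growth factor Wnt1, and the tumours had arisen spontaneously.

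The groups were p21-null tumours from mice given doxorubicin (10 tumours from 9 mice), untreated p21-null tumours (6 tumours from 5 mice), p53-null tumours from mice given doxorubicin (6 tumours from 5 mice) and untreated p53-null tumours (6 tumours from 4 mice). Doxorubicin, a drug that traps topoisomerase II on cut DNA, was injected intraperitoneally at 4 mg/kg on each of 5 days, and tumours were taken 24 h after the last dose. Wild-type tumours (6 treated from 5 mice, 6 untreated from 6 mice) were made with another library kit and serve only as a second readout. The labels used here give neither the age of the mice nor which part of Trp53 or Cdkn1a the null alleles lack. Tumours whose titles share a number were taken as tumours of 1 mouse and averaged, and p-values measure the spread between mice told apart by those numbers. Single mice are named by the titles of their tumours.

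As background, p53 is a transcription factor that DNA breaks stabilise. It binds pairs of decamers near its target genes and turns on genes that stop the cell cycle, repair DNA, change metabolism or start apoptosis, and it also turns on its own inhibitors. p21, the product of Cdkn1a, is a p53 target that inhibits cyclin-dependent kinases and is the main route from p53 to cell cycle arrest. p21-null cells therefore still hold p53, whereas p53-null cells lack the factor and every response that needs it.

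Levels are in TPM rescaled to the same total over the nuclear protein-coding genes of each tumour, called protein-coding TPM, so that levels may be compared between genes per length of transcript. A gene passed when its response difference had an adjusted p under 0.05 (limma, Benjamini-Hochberg adjustment over all 14166 genes tested). Adjusted p for other contrasts, other settings or wild-type tumours also come from limma with this adjustment, over the genes tested in that fit. Differences are on the log2(protein-coding TPM + 1) scale and are given ± their standard error. This scale understates the change of genes with low levels. The sequencing depth is unknown, because TPM carry none. In bulk tumours, fewer cells of a type and less RNA per cell cannot be told apart.

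Stretches of promoter are shown for 4 genes described below. Each holds a pair of p53 decamers upstream of an annotated start in the RefSeq promoter table of GRCm38.p6. The 4 are a choice, since other genes named below, among them Polk, Ckap2 and Sesn1, which did not pass, also hold such a pair. The decamers are in capitals and each line is read 5′ to 3′ on the strand of the gene.
Bax: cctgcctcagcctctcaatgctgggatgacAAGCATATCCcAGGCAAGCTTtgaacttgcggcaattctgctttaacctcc
Ccng1: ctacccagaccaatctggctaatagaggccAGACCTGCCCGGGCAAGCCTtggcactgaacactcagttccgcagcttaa
Rps27l: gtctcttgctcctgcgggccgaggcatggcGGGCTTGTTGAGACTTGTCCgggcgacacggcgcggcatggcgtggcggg
Cdkn1a: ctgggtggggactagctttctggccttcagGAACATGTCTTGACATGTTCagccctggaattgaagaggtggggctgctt
The stretch of Bax lies at chr7:45467060-45467140 on the minus strand, and its pair starts 212 bases before the start. For Ccng1 the stretch is chr11:40755432-40755511 on the minus strand, and the pair starts 195 bases upstream. For Rps27l it is chr9:66946266-66946345 on the plus strand, with the pair 117 bases upstream, and for Cdkn1a it is chr17:29090898-29090977 on the plus strand, with the pair 51 bases upstream. Each pair differs from the p53 consensus at 1 base, and the decamers of Bax are parted by 1 base.

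Pairs were searched in the window from 250 bases before to 50 bases after each start, over both strands at once because the consensus is its own reverse complement, with at most 2 mismatches over the 20 bases and a spacer of up to 3 bases. Of the 27025 genes in the table, 1124 (4.2%) had a pair. Of the 76 genes with a higher response in p21-null tumours, 64 were in the table and 7 of these (10.9%) had a pair. Among genes of the p53 target lists, a pair was found for 3 of 26 that passed (11.5%) and for 8 of 65 that did not pass (12.3%). A match is a description of the letters only.

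The response difference was positive in 76 genes that passed, which is 0.536% of the genes tested, and negative in 2, which is 0.0141%. Of the 76, 13 had passed the filter on low levels only through treated p21-null mice, where they are high, as had 303 of the 14166 genes tested. The same count for the other groups is not given. The predicted gene Gm4353, 1 of the 76, passed the filter only through untreated p53-null mice. The count of 2 depended on the fit: it was 0 to 10 when 1 mouse was left out (10 without mouse p53null_Doxo_2551), and with array weights 126 genes were positive and 148 negative. At an unadjusted p under 0.05, 464 genes were above 0 and 1043 below 0, and the median of all genes was -0.12. Among the 76 genes the median difference was 1.5, with a range of 0.45 to 4.89, and it was at least 1 in 60 genes and at least 2 in 15. Their median response was 1.31 in p21-null tumours and -0.13 in p53-null tumours.

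**Figure D1:**
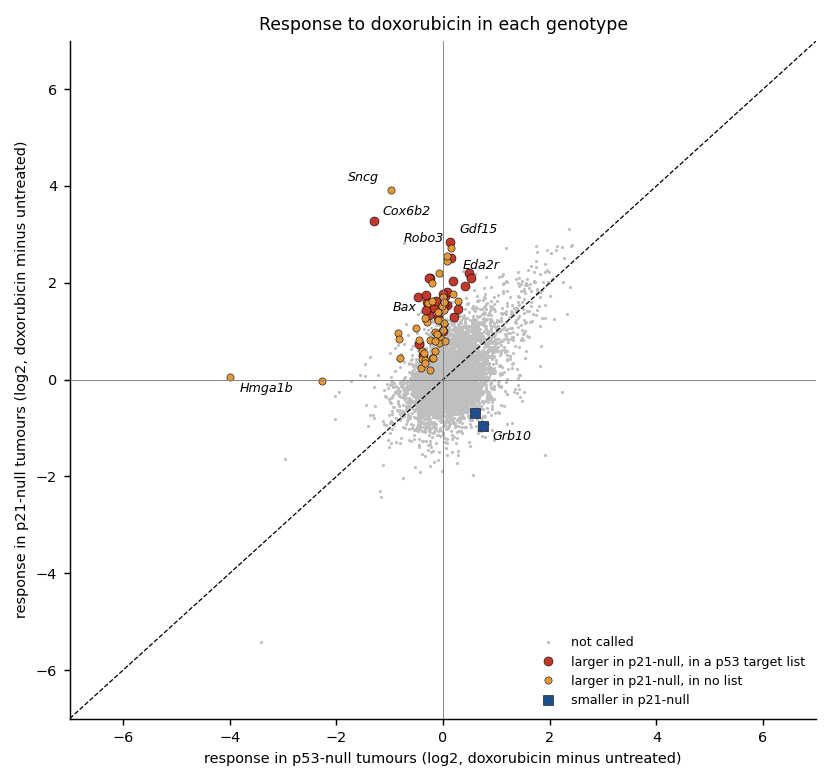
Each point is 1 of the 14166 genes tested, with its response (log2, doxorubicin minus untreated) in p21-null tumours on the vertical axis and in p53-null tumours on the horizontal axis; the dashed line marks equal responses. The 76 genes with a higher response in p21-null tumours (red circles for p53 target lists, orange for other genes) lie above the line, most of them near 0 on the horizontal axis, and the 2 genes with a lower response are blue squares.

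The response itself passed as a rise in p21-null tumours in 71 of the 76 genes, while in p53-null tumours it passed as a rise in 0 and as a fall in 3 (Cox6b2, Hmga1b and the predicted gene Gm4353). In 68 of the 76 genes every treated p21-null mouse stood above every untreated p21-null mouse, and in 0 of them did every treated p53-null mouse stand above every untreated p53-null mouse. Over the 76 genes, the median change of a single treated mouse against its untreated group lay between 1.13 and 1.51 in the 9 p21-null mice and between -0.23 and -0.07 in the 5 p53-null mice. Since these genes were chosen by the same contrast, these counts describe them and are no separate test. The same counts over all genes tested are not given. Full separation also depends on the numbers of mice, which differed between the genotypes. In untreated tumours 8 of the 76 genes passed for the difference between genotypes, 7 higher in p21-null tumours (Bax, Gdf15, Eda2r, Ccng1, Rab44, Mgmt and Slc19a2) and 1 lower (Gm4353). The share of all genes tested that passed for this difference is not given, so the 8 cannot be set against it.

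The gene groups that follow are lists of known p53 targets, sorted by function. The lists were chosen with earlier results of these data known, so their counts and medians describe them and are no separate test. They hold 108 genes, of which 107 were found among the protein-coding genes and all of these passed the filter on low levels. Rprm, Ano3 and Cd80 passed the filter only through treated p21-null mice. In all, 29 of the 107 passed with a higher response in p21-null tumours and 0 with a lower one, beside the 0.536% and 0.0141% of all genes, and the median response difference of the 107 was 0.28, beside -0.12 for all genes. The other 78 did not pass, which does not show that their responses were alike.

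**Figure D2:**
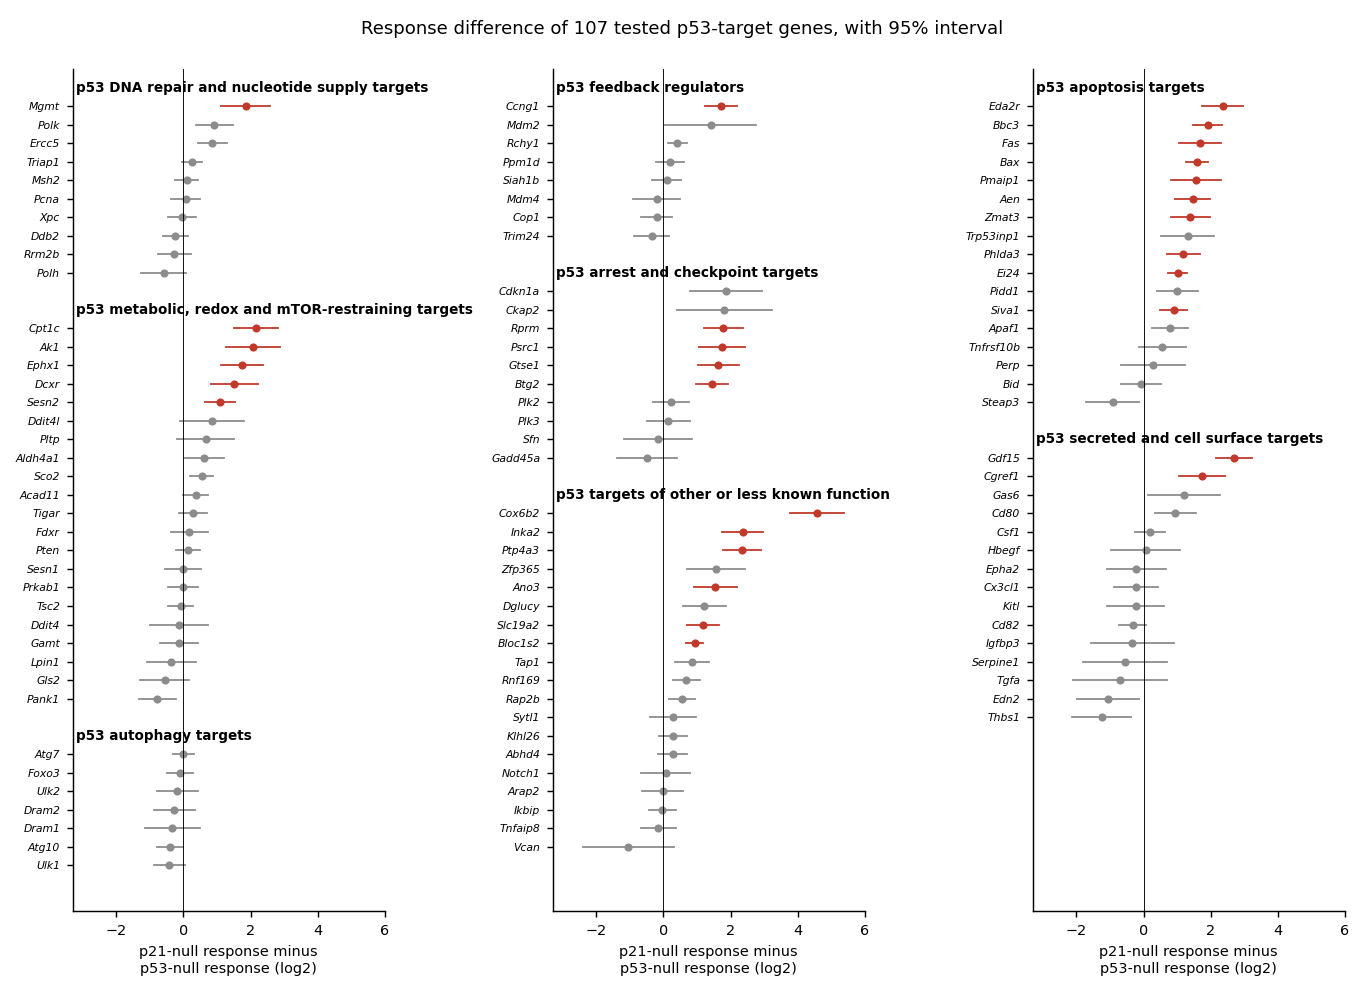
Response difference (log2, horizontal axis) of the 107 tested p53 target genes, grouped by function, with points at the estimate and lines over its 95% interval. Red marks the 29 genes that passed; 10 of these are in the apoptosis list, 6 among targets of other function, 5 in the metabolic list and 4 in the arrest list, and 0 of the 7 autophagy genes passed.

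The apoptosis list held the most genes that passed. The response was higher in p21-null tumours in 10 of its 17 members and lower in 0, and the median difference of the list was 1.19. The genes reach from the mitochondrial route (Bax, Bbc3, Pmaip1) to receptors of the tumour necrosis factor family (Fas, Eda2r). They also include a partner of death receptors (Siva1) and a nuclease of late apoptosis (Aen).

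Bax (ENSMUSG00000003873, chromosome 7, 45461697 to 45466898 on GRCm38) encodes the pore-forming protein that opens the outer mitochondrial membrane. It stood between 413 and 511 protein-coding TPM (median 475) in the 9 treated p21-null mice, against 154, 160, 191, 206 and 231 in untreated p21-null mice. In p53-null mice it was at 99.8, 101, 101, 105 and 113 after doxorubicin, against 107, 111, 130 and 158 without it. The p21-null groups did not overlap, and the treated p53-null values lay within or below the untreated ones. Its response difference was 1.60 ± 0.15 (95% interval 1.28 to 1.91, adjusted p = 1.56e-06). The untreated level was also higher in p21-null than in p53-null tumours, by 0.58 (adjusted p = 0.0159).

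Bbc3 encodes PUMA, a BH3-only protein that frees Bax from its inhibitors. Its levels were 29.5 to 48.6 (median 40.7) in treated p21-null mice, against 9.12, 11.1, 11.1, 13.8 and 18.8 in untreated ones. Treated p53-null mice had 6.4, 8.39, 8.42, 8.49 and 9.10, against 9.09, 10.1, 10.2 and 11.6 in untreated p53-null mice. Its difference was 1.91 ± 0.21 (adjusted p = 8.40e-06), and all 9 treated p21-null mice but 0 of 5 treated p53-null mice stood above the untreated mean of their genotype.

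Eda2r, a receptor of the tumour necrosis factor family for ectodysplasin A2, had the largest difference of the list, 2.36 ± 0.29 (adjusted p = 6.28e-05). It was at 13.0 to 30.7 (median 15.5) in treated p21-null mice, against 1.81, 1.84, 2.39, 2.61 and 3.51 in untreated p21-null mice. In p53-null mice no value reached 1: treated mice had 0.239, 0.330, 0.483, 0.495 and 0.842, against 0.249, 0.323, 0.325 and 0.363 in untreated ones. Its untreated level was higher in p21-null tumours as well, by 1.36 (adjusted p = 0.00307).

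Aen, an exonuclease that digests DNA in dying cells, stood at 100 to 147 (median 119) in treated p21-null mice, against 24.1, 39.1, 41.4, 43.1 and 67.8 in untreated ones. For p53-null mice the levels were 24.6, 25.6, 26.7, 28.7 and 31.4 after treatment, against 19.9, 23.7, 26.3 and 36.5 without treatment. The difference was 1.47 ± 0.25 (adjusted p = 0.00317).

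Ei24, a protein of the endoplasmic reticulum induced by p53, had a smaller and tight difference of 1.02 ± 0.14 (adjusted p = 0.000131). Its levels were 149 to 209 in treated p21-null mice, against 80.6 to 93.5 in untreated ones, and 72.3 to 92.2 in treated p53-null mice, against 74.1 to 88.2 in untreated ones. Only the treated p21-null group stood apart.

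The other members that passed are named after their values were seen. Fas, the receptor of Fas ligand, differed by 1.68 ± 0.30 (adjusted p = 0.00522) and Zmat3, an RNA-binding zinc finger protein, by 1.4 ± 0.28 (0.0127). Phlda3, which competes with the kinase Akt for membrane lipids, differed by 1.19 ± 0.24 (0.0158), but did not pass with the 28 tumours as separate samples (0.0806) or with the title number as a random effect (0.0895). Siva1, a partner of death receptors, differed by 0.89 ± 0.19 (0.0246) and lost its pass without mouse p53null_Doxo_2769 or p53null_Doxo_2771, mouse p53null_Untreated_1556 or p53null_Untreated_881, or mouse p21null_Untreated_4383. Pmaip1, which encodes the BH3-only protein NOXA, differed by 1.57 ± 0.36 (0.047) and kept its pass in 4 of the 23 fits that each left out 1 mouse. It also lost its pass with a pseudocount of 0.1 (0.0976), without the filter (0.0711), with separate tumours (0.277) and with the random effect (0.296).

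Of the 7 apoptosis genes that did not pass, Perp and Bid had the highest means over the 4 groups. Perp, a membrane protein of desmosomes, was at 394 to 1040 in treated p21-null mice, against 273 to 576 in untreated ones, and at 154 to 826 in treated p53-null mice, against 218 to 456 in untreated ones, so all 4 groups overlapped. Its difference was 0.27 ± 0.46 (95% interval -0.68 to 1.22), and it was below 0 without mouse p53null_Doxo_2688. Bid, a BH3-only protein that links death receptors to mitochondria, had a difference of -0.07 ± 0.29 (95% interval -0.67 to 0.53), whose sign turned when single mice were left out. Trp53inp1, which promotes p53-dependent death, was higher in treated p21-null mice (57.4 to 133) than in any other mouse, but its difference of 1.32 ± 0.38 did not pass (adjusted p = 0.202, and 0.0396 with median-of-ratios scaling). In p53-null tumours it had 9.53, 17.3, 22.4, 26.4 and 37.5 after doxorubicin, against 8.61, 10.0, 12.1 and 16.0 without it. Apaf1, the scaffold of the apoptosome, had a difference of 0.79 ± 0.25 (adjusted p = 0.276, and 0.0238 with array weights).

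**Figure D3:**
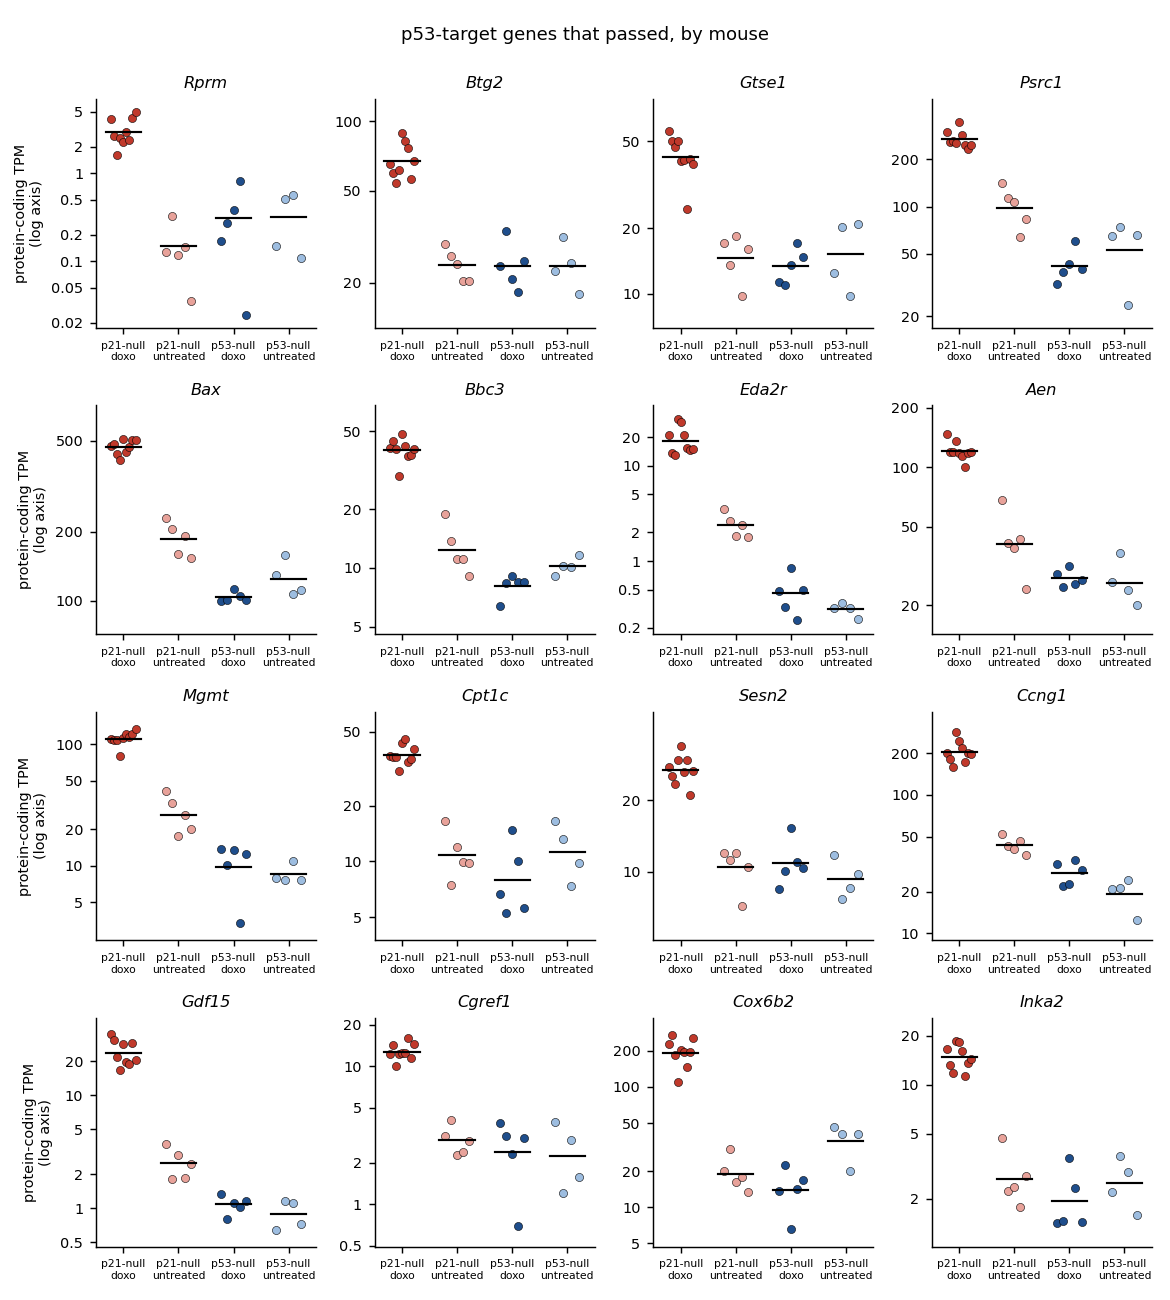
Levels of 16 p53 target genes that passed (vertical axis, protein-coding TPM on a log axis), 1 point per mouse, for treated and untreated p21-null and treated and untreated p53-null tumours from left to right. Bars are group means on the log2(level + 1) scale. In each panel the 9 treated p21-null mice lie above the rest of the panel. The treated and untreated p53-null mice overlap in all 16 panels. These genes were picked from targets that passed the same contrast, so the panels describe them and are no separate test. Phlda3, which passed but is not shown, breaks the pattern. It was at 263 in treated mouse p21null_Doxo_4439, against 266 in mouse p53null_Untreated_2119. The share of all genes tested with this pattern is not given.

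In the arrest and checkpoint list the response was higher in p21-null tumours in 4 of 10 tested members (Rprm, Btg2, Gtse1 and Psrc1) and lower in 0, with a median difference of 1.54. These are targets that act on the cell cycle beside p21 or through the mitotic spindle. The median of the list includes Ckap2, whose difference was 1.81, and 0.94 without mouse p53null_Untreated_2119. The list median without that mouse is not given.

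Btg2, an antiproliferative partner of the deadenylase complex, was at 54.2 to 89.2 (median 65.1) in treated p21-null mice, against 20.3, 20.4, 24.1, 26.1 and 29.4 in untreated ones. Treated p53-null mice had 18.3, 20.8, 23.6, 24.9 and 33.5, against 17.8, 22.5, 24.3 and 31.7 in untreated p53-null mice. The difference was 1.45 ± 0.23 (adjusted p = 0.00145) and its response in p53-null tumours was 0.01 ± 0.18.

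Psrc1, a spindle protein, stood at 231 to 344 (median 256) in treated p21-null mice, against 64.4, 83.5, 107, 114 and 141 in untreated ones. In p53-null mice it was at 32, 38.2, 40.2, 43.4 and 60.7 after treatment, against 23.6, 65.1, 66.4 and 74.0 without. Its difference was 1.75 ± 0.33 (adjusted p = 0.00908).

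Gtse1, a microtubule-associated protein that also carries p53 out of the nucleus, was at 24.4 to 55.6 (median 41.4) in treated p21-null mice, against 9.76 to 18.3 in untreated ones. The p53-null levels were 11 to 17.1 after treatment, against 9.74 to 20.9 without, and the difference was 1.64 ± 0.30 (adjusted p = 0.00538). Rprm, a cytoplasmic mediator of arrest before mitosis, was low throughout, at 1.59 to 4.93 in treated p21-null mice and below 1 in every other mouse. Its difference was 1.79 ± 0.28 (adjusted p = 0.00114) and it had entered the test only through the treated p21-null group.

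Cdkn1a (ENSMUSG00000023067, chromosome 17, 29090976 to 29100727) itself was read at the gene level in p21-null tumours, so these levels do not check the genotype. It was at 224 to 328 (median 279) in treated p21-null mice, against 33.4, 53.2, 59.9, 74.3 and 78.4 in untreated p21-null mice. In p53-null mice it was at 14.9, 55.1, 57.2, 62.7 and 105 after doxorubicin, against 17.8, 39.2, 39.4 and 78.7 without it. The difference of 1.87 ± 0.51 did not pass (adjusted p = 0.153). It was 2.22 (adjusted p = 0.0451) without mouse p53null_Untreated_2119 and 1.91 (0.0433) with the 28 tumours as separate samples, and the range over all other settings and left-out mice was 1.44 to 2.22.

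Sfn, Plk2, Plk3, Gadd45a and Ckap2 did not pass. Sfn, or 14-3-3 sigma, was at 181 to 541 in treated p21-null mice, against 166 to 404 in untreated ones, and at 62.5 to 233 in treated p53-null mice, against 64.4 to 175 in untreated ones. Its difference was -0.17 ± 0.49 (95% interval -1.19 to 0.84). Plk2, a kinase induced by stress, had a difference of 0.23 ± 0.27 (95% interval -0.33 to 0.78). Without mouse p53null_Untreated_2119 these were 0.14 for Sfn and -0.01 for Plk2.

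Among the feedback regulators of p53, 1 of 8 passed with a higher response in p21-null tumours and 0 with a lower one, and the median difference was 0.14. The gene was Ccng1, cyclin G1, which recruits a phosphatase to Mdm2. It was at 159 to 287 (median 200) in treated p21-null mice, against 36.6, 40.3, 42.7, 46.4 and 52.0 in untreated ones. Levels in p53-null mice were 22, 22.5, 28.8, 31.5 and 33.7 after treatment, against 12.4, 20.7, 21.2 and 24.2 without. The difference was 1.71 ± 0.23 (adjusted p = 0.000196). Its untreated level was higher in p21-null tumours by 1.14 (adjusted p = 0.00168).

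Mdm2 (ENSMUSG00000020184, chromosome 10, 117688875 to 117710758), the ubiquitin ligase that degrades p53, had 1 untreated p53-null mouse far above the rest. It was at 56.2 to 88.7 (median 71.8) in treated p21-null mice, against 26.1, 28.5, 36.8, 38.5 and 39.2 in untreated ones. In treated p53-null mice it was at 25.0, 30.4, 32.3, 38.0 and 40.2, against 18.6, 21.9, 22.4 and 327 in untreated p53-null mice, the last in mouse p53null_Untreated_2119. The difference was 1.41 ± 0.66 with that mouse (adjusted p = 0.461) and 0.43 ± 0.21 without it (adjusted p = 0.452). Without mouse p53null_Untreated_2119 every treated p53-null mouse stood above every untreated one, which Bax, Bbc3 and Btg2 did not show.

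In mouse p53null_Untreated_2119 the genes around Mdm2 were high as well. Of 10 tested genes that start within 0.5 Mb of Mdm2, 9 had their highest level among the 23 mice in this mouse, and the median ratio of its level to the mean of the other untreated p53-null mice was 14.8. Yeats4 was at 678 in mouse p53null_Untreated_2119, against 37.4 to 54.0 in the other untreated p53-null mice, and Cpsf6 at 727, against 44.0 to 56.9. Lyz2, a macrophage gene in the same window, was at 556, against 443 to 676. The same held around Ckap2 on chromosome 8, a spindle protein of the arrest list: 14 of 15 tested genes within 0.5 Mb were highest in mouse p53null_Untreated_2119, with a median ratio of 7.0. Over all tested genes this mouse was the highest of 23 in 11.2%. Ckap2 stood at 30.8 to 104 (median 78.3) in treated p21-null mice, against 23.7 to 29.5 in untreated ones. It was at 17.8, 18.1, 28.1, 30.1 and 68.0 in treated p53-null mice, against 19.9, 20.3, 20.7 and 241 in untreated ones. Its difference was 1.81 ± 0.69 (adjusted p = 0.389) with mouse p53null_Untreated_2119 and 0.94 ± 0.42 (0.44) without it.

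**Figure D4:**
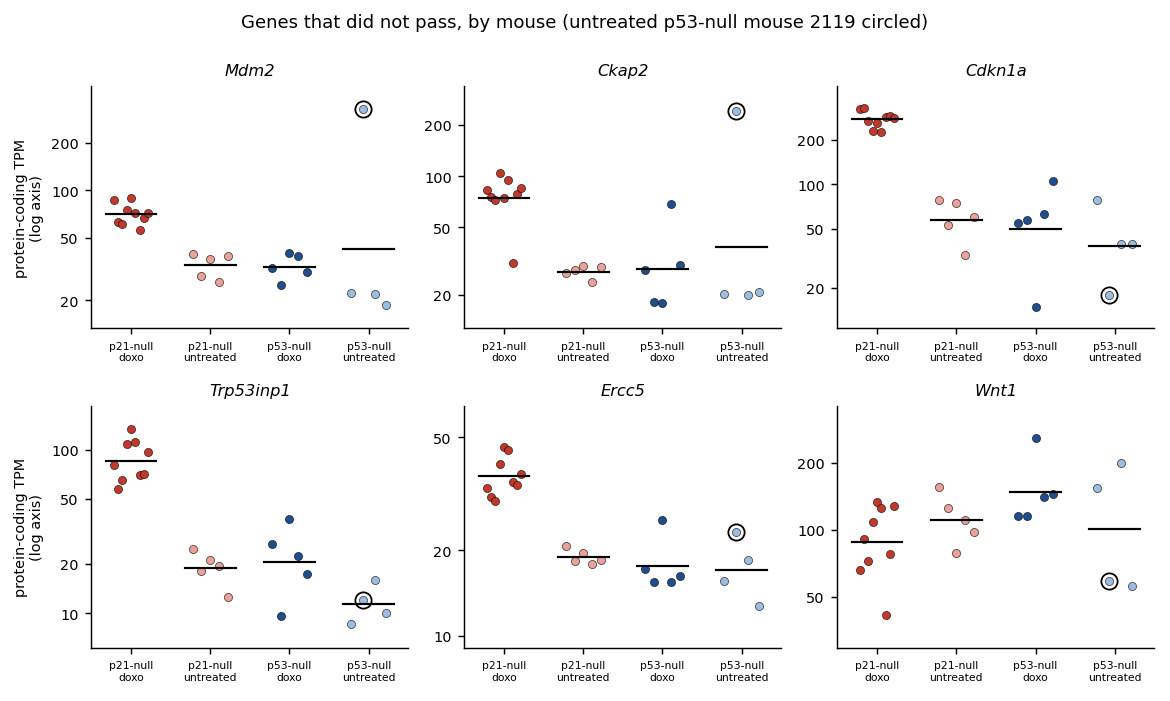
Levels of Mdm2, Ckap2, Cdkn1a, Trp53inp1, Ercc5 and Wnt1, which did not pass (vertical axis, protein-coding TPM on a log axis), 1 point per mouse, with groups from left to right as treated and untreated p21-null and treated and untreated p53-null tumours. Bars are group means on the log2(level + 1) scale, and mouse p53null_Untreated_2119 is circled; it stands at 327 for Mdm2 and 241 for Ckap2, apart from the other 3 untreated p53-null mice.

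Of the other feedback regulators, Rchy1, a ubiquitin ligase for p53, differed by 0.41 ± 0.14 (adjusted p = 0.3), and Cop1, another such ligase, by -0.20 ± 0.22 (95% interval -0.66 to 0.26). Trp53 (ENSMUSG00000059552, chromosome 11, 69580359 to 69591873) was at 66.9 to 114 (median 102) in treated p21-null mice, against 95.2, 120, 120, 126 and 128 in untreated ones. It was at 47.9, 48.8, 53.4, 79.8 and 88.1 in treated p53-null mice, against 63.4, 71.5, 74.8 and 85.5 in untreated ones, so its transcript was present in tumours labelled p53-null. Its difference was 0.01 ± 0.22 (95% interval -0.45 to 0.47).

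The DNA repair and nucleotide supply list had 1 of 10 members with a higher response in p21-null tumours and 0 with a lower one, and its median difference was 0.08. The member was Mgmt, which removes alkyl groups from guanine. It was at 80.3 to 132 (median 112) in treated p21-null mice, against 17.6, 20, 26.0, 32.7 and 40.9 in untreated ones. In p53-null mice it was at 3.42, 10.2, 12.5, 13.6 and 13.7 after treatment, against 7.67, 7.72, 8.02 and 10.9 without, and the difference was 1.86 ± 0.36 (adjusted p = 0.00942). Ercc5, an endonuclease of nucleotide excision repair, lay near the threshold at 0.87 ± 0.21 (adjusted p = 0.0742) and passed in 8 of the other fits, leaving out mouse p53null_Doxo_2688 among them. Polk, a translesion polymerase, differed by 0.93 ± 0.26 (adjusted p = 0.181, but 0.00712 with median-of-ratios scaling and 0.0458 with array weights). The replication clamp Pcna, the most abundant of the list, differed by 0.07 ± 0.21 (95% interval -0.36 to 0.50) and Triap1, an inhibitor of caspase activation, by 0.25 ± 0.14 (95% interval -0.05 to 0.54). Xpc and Ddb2, damage sensors of excision repair that p53 induces in human cells, had differences of -0.04 ± 0.20 and -0.25 ± 0.18.

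Metabolic, redox and mTOR-restraining targets passed in 5 of 21, all with a higher response in p21-null tumours, and the list median was 0.29. Cpt1c, a carnitine palmitoyltransferase isoform, stood at 30.7 to 45.8 (median 36.4) in treated p21-null mice, against 7.49, 9.84, 9.93, 12 and 16.5 in untreated ones. For p53-null mice the levels were 5.26, 5.63, 6.68, 10.1 and 14.8 after treatment, against 7.37, 9.85, 13.2 and 16.6 without. Its difference was 2.17 ± 0.32 (adjusted p = 0.00049).

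Ephx1, the microsomal epoxide hydrolase, was at 288 to 522 (median 348) in treated p21-null mice, against 87.7 to 168 in untreated ones, and at 36.6 to 97.8 in treated p53-null mice, against 61.0 to 87.1 in untreated ones. Its difference was 1.75 ± 0.30 (adjusted p = 0.00356). Sesn2, a leucine sensor that restrains mTORC1, was at 21.1 to 33.8 in treated p21-null mice, against 7.18 to 12 in untreated ones, and at 8.42 to 15.3 in treated p53-null mice, against 7.68 to 11.7 in untreated ones. The difference was 1.08 ± 0.22 (adjusted p = 0.0131), whereas its relative Sesn1 had a difference of -0.01 ± 0.25 that did not pass. Ak1, an adenylate kinase, differed by 2.08 ± 0.38 (adjusted p = 0.00712), and Dcxr, a xylulose reductase, by 1.51 ± 0.34 (0.04), a pass that it kept in 8 of the 23 fits without 1 mouse and lost without the filter (0.067). Pltp, a phospholipid transfer protein, differed by 0.67 ± 0.41 and Ddit4, an mTORC1 inhibitor, by -0.14 ± 0.42 (95% interval -1.0 to 0.73), a sign that single mice turned.

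In the autophagy list 0 of 7 members passed under limma, 0 had a difference above 0, and the median was -0.28. Of all genes tested, 35.9% were above 0 and the median was -0.12. At an unadjusted p under 0.05 in limma, 1 of the 7 autophagy genes was below 0 and 0 were above. Ulk1, the kinase that starts autophagy, was at 19.3 to 34.4 in treated p21-null mice, against 24.0 to 33.7 in untreated ones, and at 27.0 to 43.3 in treated p53-null mice, against 21.9 to 32 in untreated ones. Its difference was -0.43 ± 0.22 (95% interval -0.89 to 0.03), and that of Dram2, a lysosomal membrane protein, was -0.28 ± 0.29 (95% interval -0.89 to 0.33).

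Secreted and cell surface targets passed in 2 of 15, both with a higher response in p21-null tumours, while the list median was -0.22. Gdf15 (ENSMUSG00000038508, chromosome 8, 70629393 to 70632456), a stress cytokine of the TGF-beta family, was at 16.6 to 34.8 (median 21.8) in treated p21-null mice, against 1.81, 1.86, 2.44, 2.96 and 3.72 in untreated ones. Treated p53-null mice had 0.807, 1.03, 1.11, 1.15 and 1.34, against 0.640, 0.723, 1.10 and 1.15 in untreated p53-null mice. The difference was 2.70 ± 0.26 (95% interval 2.15 to 3.24, adjusted p = 1.56e-06).

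Cgref1, a secreted calcium-binding protein, differed by 1.75 ± 0.33 (adjusted p = 0.00899), with 10.0 to 16.1 in treated p21-null mice, against 2.27 to 4.10 in untreated ones, and 0.691 to 3.89 in treated p53-null mice, against 1.2 to 3.94 in untreated ones. Gas6, a bridging ligand for engulfment receptors, had a difference of 1.21 ± 0.52 (adjusted p = 0.434), and Igfbp3, which binds insulin-like growth factors, one of -0.33 ± 0.60 (95% interval -1.58 to 0.92). Values in the list ran as low as -1.25.

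Targets of other or less known function passed in 6 of 19, all with a higher response in p21-null tumours, and the list median was 0.68. Cox6b2 (ENSMUSG00000051811, chromosome 7, 4751792 to 4753094), a subunit of cytochrome c oxidase that is known from testis, had the largest difference of all listed targets, 4.58 ± 0.39 (95% interval 3.78 to 5.39, adjusted p = 3.05e-07). It was at 111 to 269 (median 197) in treated p21-null mice, against 13.5, 16.1, 18, 19.9 and 30.7 in untreated ones. In p53-null mice it was at 6.60, 13.7, 14.3, 16.8 and 22.5 after treatment, against 20.1, 40.9, 41.0 and 46.6 without. It rose by 3.28 ± 0.25 in p21-null tumours (adjusted p = 8.13e-09) and fell by 1.30 in p53-null tumours (standard error 0.30, adjusted p = 0.028), opposite directions in the 2 genotypes.

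Inka2, an inhibitor of the kinase Pak4, was at 11.4 to 18.5 in treated p21-null mice, against 1.77 to 4.73 in untreated ones, and at 1.42 to 3.56 in treated p53-null mice, against 1.58 to 3.66 in untreated ones. Its difference was 2.36 ± 0.30 (adjusted p = 6.28e-05). Ptp4a3, a phosphatase linked to cell migration, differed by 2.35 ± 0.27 (adjusted p = 2.15e-05), and Slc19a2, a thiamine transporter, by 1.17 ± 0.23 (0.0131). Bloc1s2, part of a complex that positions lysosomes, had a small difference with a small error, 0.93 ± 0.12 (adjusted p = 0.000116). Ano3, a membrane protein of the anoctamin family, was at 1.45 to 6.98 in treated p21-null mice and under 0.2 in every other mouse, and its difference of 1.55 ± 0.31 (adjusted p = 0.0129) rests on the filter passed through that group and did not pass with a pseudocount of 5 (0.189). Abhd4, a lipase, differed by 0.27 ± 0.21. Tap1, a peptide transporter for MHC class I that interferon also induces, differed by 0.85 ± 0.25 (adjusted p = 0.197, and 0.0282 with array weights).

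Outside the p53 lists, 47 genes had a higher response in p21-null tumours. Sncg, gamma-synuclein, had the largest difference of all genes, 4.89 ± 0.67 (adjusted p = 0.000232). It was at 24.4 to 252 (median 75.8) in treated p21-null mice, against 2.53, 3.42, 4.37, 4.82 and 7.99 in untreated ones. The p53-null levels were 2.29, 5.58, 6.16, 12 and 15.0 after treatment, against 8.42, 15.6, 17.3 and 19.8 without. Robo3, an axon guidance receptor, differed by 2.58 ± 0.30 (adjusted p = 2.47e-05) and Plcd4, a phospholipase C, by 2.37 ± 0.25 (6.02e-06). Both entered the test only through treated p21-null mice, where Robo3 was at 4.89 to 13.1 and Plcd4 at 5.52 to 10.3.

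A few of the rest are named here after their values were seen. Rps27l, a ribosomal protein S27 relative whose promoter stretch is shown above, was at 1120 to 1440 in treated p21-null mice, against 591 to 732 in untreated ones, and at 413 to 571 in treated p53-null mice, against 457 to 615 in untreated ones. Its difference was 1.06 ± 0.15 (adjusted p = 0.000232). Rev1, a translesion polymerase, differed by 1.13 ± 0.23 (adjusted p = 0.0158) and missed the threshold only without mouse p53null_Untreated_2119 (0.0517). Ddias, a suppressor of apoptosis induced by DNA damage, differed by 1.35 ± 0.29 (adjusted p = 0.0287), a pass kept in 14 of 23 fits without 1 mouse. Mcam, an adhesion molecule, differed by 1.86 ± 0.30 (0.00164) and Ass1, the arginine-synthesis enzyme argininosuccinate synthase, by 1.63 ± 0.30 (0.00561). Serpine2, a protease inhibitor, differed by 1.81 ± 0.39 (0.025), with a response of 0.96 in p21-null and -0.85 in p53-null tumours. It was at 125 to 276 in treated p21-null mice, against 75.6 to 144 in untreated ones. In p53-null mice it was at 87 to 164 after treatment, against 126 to 449 without. Serpine2 lost its pass without mouse p53null_Untreated_2119, mouse p53null_Doxo_2688 or p53null_Doxo_2771, or mouse p21null_Untreated_4383 or p21null_Untreated_4555. The pass was also lost with separate tumours (0.118) or the random effect (0.125).

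A few genes passed with another pattern. Rab44, a large Rab family protein, lies 13.4 kb from Cdkn1a on chromosome 17. It was at 70.7 to 108 in treated p21-null mice, against 16.4 to 31.4 in untreated ones, and at 0.421 to 1.74 in treated p53-null mice, against 0.593 to 1.4 in untreated ones. Its untreated level was thus higher in p21-null tumours by 3.75 (adjusted p = 1.57e-11), the response difference was 1.57 ± 0.26 (adjusted p = 0.00169, but 0.0813 with a pseudocount of 0.1), and wild-type tumours had 0.638 to 2.61 with doxorubicin and 0.380 to 2.13 without. Whether its place beside the targeted gene bears on this was not tested. Hmga1b, a near copy of the chromatin protein gene Hmga1 whose reads are hard to tell apart from it, had a difference of 4.03 ± 0.90 (adjusted p = 0.0388), with a response of 0.05 ± 0.58 in p21-null tumours. It was at 0.136, 0.264, 0.278, 0.362 and 6.39 in treated p53-null mice, against 5.82, 7.5, 76.4 and 144 in untreated ones, and kept its pass in 6 of 23 fits without 1 mouse. Hmga1b did not pass with a pseudocount of 5 (0.092), without the filter (0.0669), with separate tumours (0.568), with the random effect (0.581) or with all 6 groups (0.226). The smallest adjusted p of all (4.63e-09) belonged to the predicted gene Gm4353. This gene had passed the filter on low levels only through untreated p53-null mice, where it is high. It was at 0.031 ± 0.049 (SD, n = 9) in treated and 0.053 ± 0.056 (n = 5) in untreated p21-null mice, and at 0.048 ± 0.067 (n = 5) in treated p53-null mice, against 4.10 ± 0.51 (n = 4) in untreated p53-null mice.

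Grb10, an adaptor that dampens insulin receptor signalling, passed with a lower response in p21-null tumours. It was at 4.95 to 13.7 (median 8.53) in treated p21-null mice, against 9.09, 13.3, 19.7, 22.4 and 25.9 in untreated ones. Levels were 9.41, 13.9, 18, 19.1 and 24.4 in treated p53-null mice, against 5.99, 8.21, 11 and 13.1 in untreated ones. The difference was -1.71 ± 0.39 (adjusted p = 0.0478), and the pass was kept in 5 of 23 fits without 1 mouse. Grb10 did not pass with a pseudocount of 5 (0.057), without the filter (0.0743), with TPM as deposited (0.0587), with separate tumours (0.126), with the random effect (0.147) or without a trended prior (0.0503).

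Wild-type tumours, which hold both genes, gave a second readout that shares no tumour with the response difference. There, 817 of 14398 genes (5.67%) rose with doxorubicin and 252 (1.75%) fell. Of the 76 genes with a higher response in p21-null than in p53-null tumours, 70 were tested in wild type, and 56 of these (80%) rose there while 0 fell; 68 of the 70 were above 0, with a median of 1.33. Conversely, the 56 genes are 6.85% of the 817 that rose in wild type. Without mouse p53WT_Untreated_1198 the count of 817 was 472.

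Bax was at 175 to 217 in treated wild-type mice, against 63.5 to 88.3 in untreated ones, and its wild-type response was 1.33 ± 0.09 (adjusted p = 1.85e-05). Eda2r was at 43.5 to 66.0 in treated wild-type mice, against 3.30 to 15.3 in untreated ones, a response of 2.97 ± 0.28 (adjusted p = 0.000109). Cox6b2 responded by 2.97 ± 0.17 (8.93e-06) and Sncg by 3.30 ± 0.26 (3.25e-05). Mdm2, whose response difference rested on 1 mouse, was at 137 to 178 in treated wild-type mice, against 58.1 to 84.0 in untreated ones, a response of 1.18 ± 0.10 (adjusted p = 4.75e-05). Not every gene followed: Siva1 responded by 0.05 ± 0.13, Rab44 by 0.03 ± 0.26 and Hmga1b by -0.92 ± 1.38 in wild type.

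**Figure D5:**
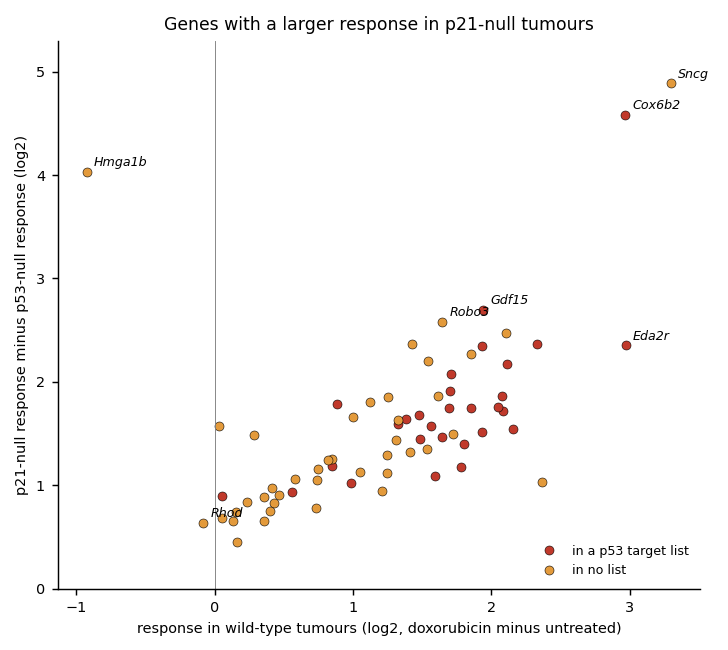
The 70 genes with a higher response in p21-null tumours that were also tested in wild type: response difference (log2, vertical axis) against the wild-type response (log2, horizontal axis), red for genes of the p53 target lists and orange for the rest. Of the 70 genes 68 lie right of 0; Sncg and Cox6b2 are the highest, Sncg is also furthest right, and Hmga1b is furthest left.

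Of 365 tested members of pathway and cell marker lists, 0 passed under limma, and their median was -0.02. At an unadjusted p under 0.05 in limma, 13 were above and 14 below 0. Of 24 engulfment genes, 6 were above and 1 below 0 at that threshold, and of 17 macrophage markers, 4 were above and 0 below. Among 6 red cell markers, 0 were above and 4 below. At any p, 87.5%, 82.4% and 0% of these lists were above 0, beside 35.9% of all genes. Interferon-stimulated genes, which answer type I interferon, had median responses of 1.99 in p21-null and 1.82 in p53-null tumours, and 0 of 29 passed for the difference. Ifit3, with the smallest p of that list, differed by 0.75 ± 0.44 (95% interval -0.16 to 1.66). Cxcl10, a chemokine, differed by 1.02 ± 0.41 (adjusted p = 0.416), and its untreated level was lower in p21-null tumours, by -1.76 (adjusted p = 0.00761).

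Genes of G2 and mitosis had a median difference of 0.03 and 0 of 30 passed, and those of G1/S and replication had one of -0.10 with 0 of 30. Ccnf, which encodes cyclin F, had the smallest p of the mitosis list, at 0.54 ± 0.32, and Cdt1, a replication licensing factor, that of the G1/S list, at -0.44 ± 0.29. The proliferation marker Mki67 was at 13.1 to 59.3 in treated p21-null mice, against 37.4 to 61.5 in untreated ones, and at 41.2 to 103 in treated p53-null mice, against 37.8 to 78.1 in untreated ones, with a difference of -0.55 ± 0.41 (95% interval -1.4 to 0.29). In wild-type tumours the medians of the mitosis and G1/S lists were -0.76 and -0.63, and 0 of their members passed as a rise. How many passed as a fall there is not given. Medians were -0.11 for other DNA repair genes, -0.06 for the integrated stress response, -0.35 for immediate early genes, -0.33 for Wnt targets and -0.29 for replication-dependent histone genes. The smallest p in these lists belonged to Wrn (-0.84 ± 0.28), Xbp1 (-0.70 ± 0.44), Jun (-0.92 ± 0.30), Rnf43 (-0.86 ± 0.28) and Hist1h2bg (-0.59 ± 0.34), of which Jun passed with array weights (adjusted p = 0.0242). MHC class I genes had a median of 0.31 and chemokine genes one of 0.31, with Erap1 at -0.65 ± 0.28.

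Summed levels of cell markers are given by group. Macrophage markers, 17 of 17 tested, summed to 4470 to 10800 (median 7210) in treated p21-null mice, against 3240 to 4430 in untreated ones, and to 2530 to 6490 in treated p53-null mice, against 3030 to 4670 in untreated ones. None of the 17 passed under limma (0 of 17), and the list median was 0.59. Apoe, with the smallest p among them, differed by 1.02 ± 0.31 (adjusted p = 0.243) and Cd68 by 0.90 ± 0.38 (0.433). Engulfment genes had a median of 0.58, with Trem2 at 1.14 ± 0.43. Neutrophil markers, 8 of 10 tested, summed to 492 to 6360 in treated p21-null mice, against 243 to 685 in untreated ones, and to 251 to 1360 in treated p53-null mice, against 95.4 to 746 in untreated ones, with a median of 0.63 and Csf3r at 0.63 ± 0.46.

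Fibroblast markers, 12 of 12 tested, summed to 528 to 2460 in treated p21-null mice, against 666 to 1540 in untreated ones, and to 993 to 5390 in treated p53-null mice, against 1510 to 2410 in untreated ones; their median was -0.11, and Pdgfra was at -1.24 ± 0.46. Red cell markers, 6 of 8 tested, summed to 5.19 to 63.3 in treated p21-null mice, against 880 to 12900 in untreated ones, and to 2.57 to 255 in treated p53-null mice, against 313 to 2770 in untreated ones. Their median was -2.39, the lowest of all lists, and 0 of 6 passed; Hbb-bt was listed at 0 in some treated mice of each genotype. T cell markers had a median of 0.31, NK and cytotoxic markers 0.00, B cell markers -0.23, endothelial markers -0.36, adipocyte markers -0.36 and muscle markers -0.59. The smallest p in these lists belonged to Lck, Klrd1, Jchain, Kdr, Pnpla2 and Myh1, at 0.62 ± 0.38, 0.86 ± 0.54, -0.47 ± 1.01, -0.60 ± 0.39, -0.46 ± 0.31 and -1.11 ± 1.10. What part these cells had in the response differences was not tested.

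Markers of mammary cells were present in the tumours, though no reference tissue was compared. All 14 luminal and all 11 basal mammary markers were tested, with summed levels over the 23 mice of 3470 to 6750 for luminal and 2580 to 7380 for basal markers. Their median differences were -0.29 and 0.30, Kit had the smallest p of the luminal list (-1.08 ± 0.38) and Krt5 of the basal list (1.56 ± 0.67), and 0 members of either passed. Wnt1 was at 41.4 to 133 in treated p21-null mice, against 79 to 156 in untreated ones, and at 116 to 259 in treated p53-null mice, against 56.2 to 200 in untreated ones. Its difference was -0.88 ± 0.48 (95% interval -1.86 to 0.11). Nuclear protein-coding genes took 79.6% to 86.3% of the deposited TPM in the 28 tumours. Mitochondrial genes took 2.3% to 3.79% in treated and 2.86% to 3.33% in untreated p21-null tumours, and 4.01% to 6.32% in treated and 2.33% to 5.99% in untreated p53-null tumours, and what part this had was not tested.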

How the data were processed

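Gene levels were measured by RNA sequencing of bulk tumours, with RNA extracted by Trizol from frozen, pulverised tissue. The authors deposited TPM for 43346 genes per tumour, made with RSEM on mm10 per the submitters' processing notes; no version or aligner is named there. The null tumours were made with 1 TruSeq RNA kit and the wild-type tumours with a stranded total RNA kit, per the labels' protocols. In wild-type tumours protein-coding genes held 7.72% to 10.7% of TPM. TPM hold no read counts, so no counting interval is given.

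TPM were rescaled to nuclear protein-coding genes (21461 by the GENCODE M21 annotation, which matched 42462 of 43346 gene IDs), put on the log2(value + 1) scale and averaged over tumours of the same title number. Genes at 1 or more in at least 4 mice were tested. limma 3.58.1 in R 4.3.3, with statmod 1.5.0, fitted the means of 4 groups with a trended, robust prior (19 residual degrees of freedom) and Benjamini-Hochberg adjustment. Wild-type tumours were fitted alone. The procedure was tested on simulated data. Other pseudocounts, filters, scalings, sample weights, treatments of shared numbers, all 6 groups and each mouse left out were tried. Genes were named by rule (Trp53, Cdkn1a and Wnt1; per p53 list the 5 smallest adjusted p that passed and the 2 most abundant that did not; the 8 largest differences in each direction with a mean of at least 5 in some group, without predicted genes; per other list the smallest p), and those named beyond it were chosen after their values were seen: Fas, Zmat3, Phlda3, Siva1, Pmaip1, Trp53inp1, Apaf1, Slc19a2, Ercc5, Polk, Xpc, Ddb2, Sesn1, Mdm2, Ckap2, Rps27l, Rev1, Ddias, Mcam, Ass1, Serpine2, Rab44, Gm4353, Mki67 and Cd68. The members and gene lists were chosen with earlier results of these data known.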

Additional observations from a re-analysis of the deposited data

Results flagged for a closer look

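Of 364 combinations of a named gene and a group of mice, 37 held a mouse whose gap to its nearest neighbour was large against the range of its group (Dixon's criterion at 95%), and chance flags about 1 in 20 groups. In treated p21-null mice, mouse p21null_Doxo_4533 had low levels of Ckap2 (30.8), Ddias (10.7), Gtse1 (24.4), Mki67 (13.1) and Trp53 (66.9). Mouse p21null_Doxo_4380 had high Abhd4 (142), Ano3 (6.98), Mcam (283) and Zmat3 (31.4). Cxcl10 was high in mouse p21null_Doxo_4093 (93.0), while Mgmt was low in mouse p21null_Doxo_4183 (80.3), Serpine2 in mouse p21null_Doxo_4439 (125) and Bid in mouse p21null_Doxo_4577 (28.9). Among untreated p21-null mice, Pmaip1 (2.34) and Siva1 (122) were low in mouse p21null_Untreated_4383 and Sesn2 (7.18) and Trp53 (95.2) in mouse p21null_Untreated_4555. Pdgfra was high in mouse p21null_Untreated_4536 (11) and Cop1 in mouse p21null_Untreated_4539 (92.6).

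Treated p53-null mouse p53null_Doxo_2688 had high Ercc5 (25.5), Rnf43 (45.9), Ulk1 (43.3) and Wnt1 (259) and low Pcna (207) and Sfn (62.5). In the same group Bbc3 was low in mouse p53null_Doxo_2237 (6.4), Mgmt was low in mouse p53null_Doxo_2769 (3.42) and Hmga1b was high in mouse p53null_Doxo_2551 (6.39). Unmouse p53null_Untreated_2119 had high Mdm2 (327), Ckap2 (241) and Ptp4a3 (20.8). In mouse p53null_Untreated_2493 Cox6b2 (20.1) and Psrc1 (23.6) were low and Mgmt (10.9) was high. Apoe was low in mouse p53null_Untreated_1556 (2040), and in mouse p53null_Untreated_881 Bloc1s2 was high (78.9) and Ulk1 low (21.9).

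The response difference, itself the test of a difference between genotypes, passed for 41 named genes. On the log2 scale it was 4.89 for Sncg, 4.58 for Cox6b2 and 4.03 for Hmga1b. Values between 2 and 3 were those of Gdf15 (2.70), Robo3 (2.58), Plcd4 (2.37), Inka2 (2.36), Eda2r (2.36), Ptp4a3 (2.35), Cpt1c (2.17) and Ak1 (2.08). It was 1.91 for Bbc3, 1.86 for Mcam, 1.86 for Mgmt, 1.81 for Serpine2, 1.79 for Rprm, 1.75 for Ephx1, 1.75 for Psrc1, 1.75 for Cgref1 and 1.71 for Ccng1. Next came Fas (1.68), Gtse1 (1.64), Ass1 (1.63), Bax (1.60), Rab44 (1.57), Pmaip1 (1.57), Ano3 (1.55) and Dcxr (1.51). Lower values were those of Aen (1.47), Btg2 (1.45), Zmat3 (1.4), Ddias (1.35), Phlda3 (1.19), Slc19a2 (1.17), Rev1 (1.13), Sesn2 (1.08), Rps27l (1.06), Ei24 (1.02), Bloc1s2 (0.93) and Siva1 (0.89). It was negative for Grb10 (-1.71).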

How the results depend on the processing

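Of the 41 named genes that passed, 33 passed under each of the other settings they were tested in, 33 without each of the 23 mice, and 30 in both. Leaving out 1 mouse gave 60 to 85 genes with a higher response in p21-null tumours, 0 to 10 with a lower one, 26 to 31 genes of the p53 lists and 0 to 1 of the other lists. The 10 lower genes came without mouse p53null_Doxo_2551. The 2 lower genes became 0 with a pseudocount of 5, 1 with a minimum of 5, 7 with TPM as deposited, 6 with median-of-ratios scaling, 1 with 28 separate tumours, 0 with the title number as a random effect and 9 with all 6 groups. Array weights gave 126 higher and 148 lower genes, and 1 gene of the other lists. Median-of-ratios scaling gave 102 higher genes. The 29 higher genes of the p53 lists became 37 with array weights, 36 with median-of-ratios scaling and 27 to 32 with the other settings. In wild-type tumours, TPM as deposited gave 260 rises and 82 falls, median-of-ratios scaling 553 falls, and leaving out 1 mouse 472 to 770 rises and 105 to 301 falls. Median-of-ratios scaling moved the median of all genes to 0.01, by 0.13. Signs turned only in genes that did not pass: Trp53 (-0.001, pseudocount 5), Ddit4 (0.006) and Bid (0.071) with median-of-ratios scaling, and Perp (-0.15) and Ddit4 (0.046) with array weights. Without 1 mouse, values ran from -0.007 to 0.378 for Plk2, -0.088 to 0.516 for Perp, -0.318 to 0.115 for Bid, -0.325 to 0.175 for Ddit4, -0.804 to 0.037 for Igfbp3, -0.998 to 0.119 for Jchain, -0.518 to 0.141 for Sfn and -0.082 to 0.134 for Trp53. The cause was not tested. No paired analysis was possible because no title number is shared between groups. The unknown depth limits what can be said of genes at low levels.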
